A study of Caenorhabditis elegans with 6 samples.

Results

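The genes described here are 8 *C. elegans* genes of protein folding: the cytosolic HSP70 chaperones *hsp-1* and *hsp-70*, their exchange factor *hsp-110*, the heat shock transcription factor *hsf-1*, the endoplasmic reticulum (ER) HSP70s *hsp-3* and *hsp-4*, and the mitochondrial chaperones *hsp-6* and *hsp-60*. They were chosen by symbol from the 46756 genes of the deposited count table, and all 8 were among the 15883 genes that passed the filter on low counts. Their messenger RNA was measured in 3 libraries of worms with more than 20 exophers (high exopher) and 3 libraries of worms with fewer than 2 (low exopher). Exophers are very large vesicles that muscle cells of the body wall shed into their surroundings.

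Both groups were whole hermaphrodites of strain ACH93, kept at 20 °C on *E. coli* OP50 and collected at adulthood day 2, with no mutation or treatment to separate them. All 6 libraries therefore also carry the marker transgenes of that strain, *wacIs1* and *wacIs14*, in which the muscle promoter of *myo-3* drives a red proteasome subunit, RPN-5 fused to wrmScarlet, and a green mitochondrial outer membrane tag, the start of TOMM-20 fused to GFP. The worms were sorted by their exopher number itself, so the comparison is one of naturally differing animals and carries every other difference between them. The labels describe the libraries as biological replicates from separate populations, and none of the sources used here says how many worms went into each.

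HSP70 proteins bind stretches of unfolded protein and release them in a cycle driven by ATP, helped by J-domain proteins, which deliver clients and trigger ATP hydrolysis, and by exchange factors such as HSP-110, which free the nucleotide. Each compartment has its own set. Heat and misfolded protein in the cytosol raise inducible chaperones through HSF-1, stress in the ER raises *hsp-4* through the IRE-1 and XBP-1 branch of the unfolded protein response, and stress in mitochondria raises *hsp-6* and *hsp-60*, the usual reporters of the mitochondrial unfolded protein response.

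Total counts were between 60511481 and 72909583 per library, so counting error was small for every member. Whole worms were sequenced, and markers of sperm, oocytes, embryos, body wall muscle, intestine and hypodermis all had counts. In such bulk samples, a marker sum gives the level of its genes relative to all counts and not why that level differs. Summed normalized counts of 10 intestinal markers were between 2325700 and 3196300 in high exopher libraries, against 3622800 to 4271000 in low exopher libraries. For 12 body wall muscle markers the sums were between 140500 and 171400 in high exopher libraries, against 184600 to 212070 in low exopher libraries. For 12 sperm markers the sums were between 546 and 823 in high exopher libraries, against 1549 to 3427 in low exopher libraries. Single genes called by edgeR were 0 of 10 intestinal markers, 3 lower and 1 higher of 12 muscle markers, 6 lower of the 11 sperm markers tested and 1 higher of the 6 hypodermis markers tested. With the replicate number as a block, described below, the calls were 5 intestinal markers lower, 4 muscle markers lower and 1 higher, 8 sperm markers lower, 2 of 12 oocyte markers lower and 2 hypodermis markers higher. No marker of these lists was at 0 over the 6 libraries, and the ranges of the oocyte, embryo and hypodermis sums overlapped. The hypodermis markers tested had a median log2 fold change of 0.60 and a highest of 1.52. The part of these differences in the chaperone values below was not tested.

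No member passed an adjusted p of 0.05 in edgeR's quasi-likelihood test of high over low exopher worms. In the same test 3.41% of all genes were called higher and 3.1% lower. DESeq2 and limma-voom also called 0 of the 8, and 1 member, *hsp-4*, had an unadjusted p below 0.05 in edgeR. The log2 fold changes were negative for 7 of the 8 members, and for 8380 of all 15883 genes tested. The median was −0.09 for the members, against −0.01 over all genes tested. Among the 7, *hsp-1* was at −0.0021, a sign that turned under some settings given below. The normalized counts of the groups did not overlap for *hsp-60*, which was higher in high exopher worms, and for *hsp-4*, which was lower. Among all genes, 11.8% stood apart as higher and 9.96% as lower, so 1 of 8 in each direction is close to that background. None of the 8 differed by as much as 1 on the log2 scale.

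**Figure D1:**
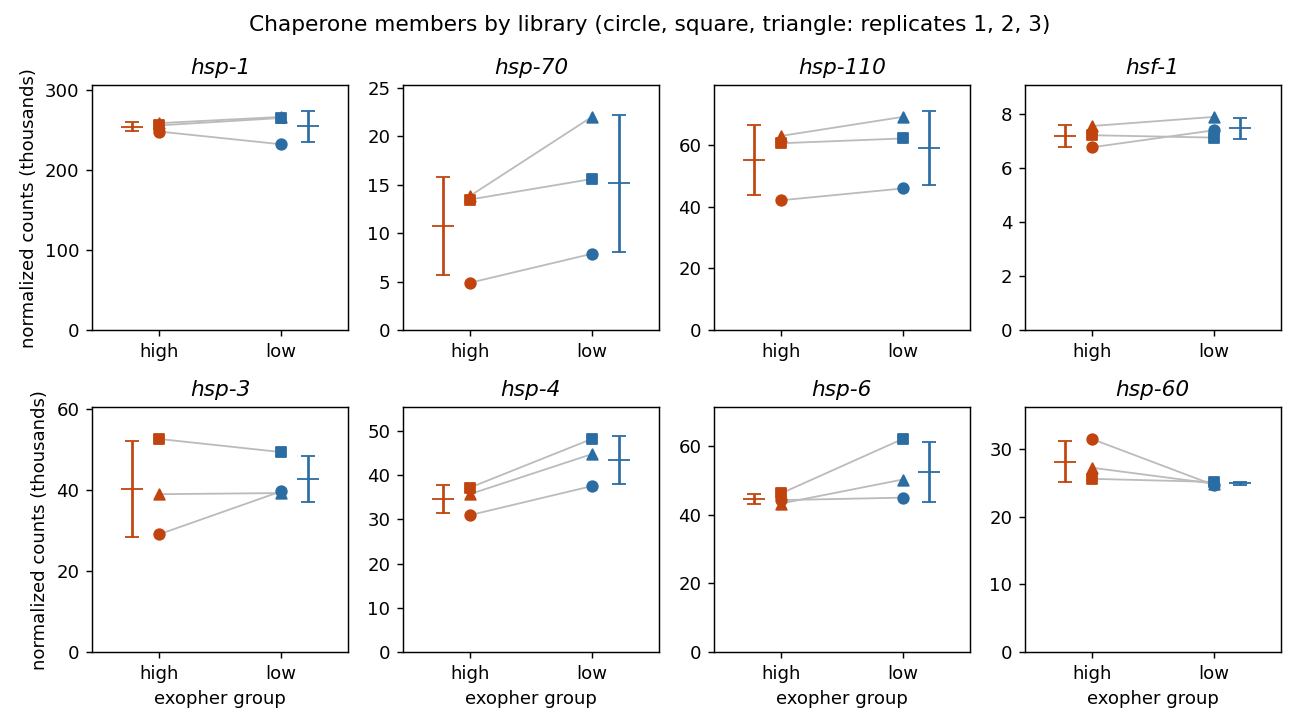
Normalized counts (linear axis from 0) of the 8 members in the 3 high exopher libraries (red, left) and the 3 low exopher libraries (blue, right). Lines join libraries of the same replicate number, and bars give the mean and SD of each group. *hsp-4* and *hsp-60* are the members whose groups do not overlap, and *hsp-70* has the widest spread, with replicate 1 lowest in both groups.

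The libraries are numbered 1 to 3 in each group, and same-numbered libraries of the 2 groups deviated from their group means together. The test was therefore also run with the replicate number as a block, which compares each high exopher library with the low exopher library of the same number. With the block, 6.52% of all genes were called higher and 5.86% lower, and 2 of the 8 members, *hsp-70* and *hsp-4*, were called lower. None was called higher. These 2 calls are the only ones among the members that the block changed, and each member's value is given below. Where a gene is said below to differ in the same direction within every number, no share over all genes is given beside it.

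**Figure D2:**
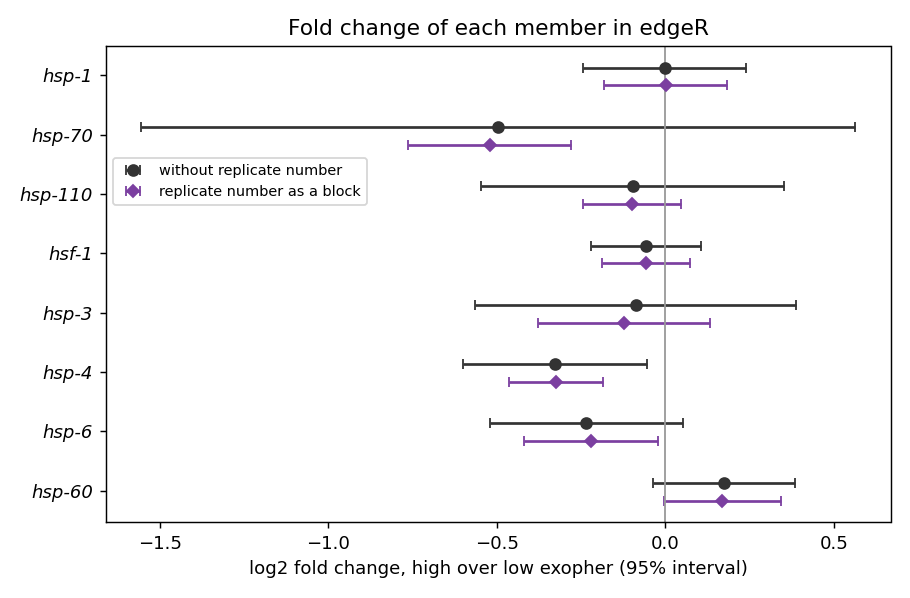
Log2 fold change, high over low exopher, of each member in edgeR, with its 95% interval. Circles are the fit without the replicate number and diamonds the fit with it as a block. The interval of *hsp-70* spans −0.76 to −0.28 with the block and −1.55 to 0.56 without it, and that of *hsp-4* lies below 0 in both fits.

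In the cytosol, *hsp-1* (WBGene00002005, chromosome IV, 17278959 to 17281330 of WBcel235) encodes the constitutive HSP70, which folds new and damaged proteins in every cell. Its normalized counts were 248560, 256250 and 259040 in high exopher worms, against 232640, 265500 and 266830 in low exopher worms. High exopher values lay inside the low exopher range. On the log2 scale the fold change was −0.0021 with a 95% interval of −0.24 to 0.24 (SE 0.105, edgeR adjusted p = 0.996), or 0.844 to 1.18 as a fold. Its level per length was the highest of the members, with a mean of 1822 over the 6 libraries in RPKM, which is the count scaled to exon length and library size.

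*hsp-70* (WBGene00002026, chromosome I, 9320325 to 9322519) encodes a cytosolic HSP70 that is low in unstressed worms and strongly induced by heat through HSF-1. It had normalized counts of 4894, 13481 and 13850 in high exopher worms, against 7877, 15593 and 21999 in low exopher worms. Replicate 1 was the lowest library of each group, the groups overlapped, and within every number the high exopher library was the lower one. The means were 10742 ± 5068 in high exopher worms and 15156 ± 7071 in low exopher worms (SD, n = 3 each).

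For *hsp-70* the log2 fold change was −0.50 with an interval of −1.55 to 0.56 (SE 0.455, edgeR adjusted p = 0.715). With the replicate block it was −0.52 with an interval of −0.76 to −0.28 (SE 0.101, edgeR adjusted p = 0.0201). The log2 differences within the numbers were −0.69, −0.21 and −0.67. In the blocked fit it was −0.44 without both libraries of number 1 (edgeR adjusted p = 0.0652), −0.68 without number 2 (0.00341) and −0.45 without number 3 (0.0278), so the call was lost without number 1 at about the fold change that kept it without number 3. Without the block, leaving out 1 library at a time moved the log2 fold change between −0.82 and −0.13, with no call.

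The spread of *hsp-70* was itself wide. Its highest library, low exopher replicate 3, had 4.50 times the normalized count of its lowest, high exopher replicate 1. Its SD of log2 CPM (counts scaled to a common library size) within groups was 0.81, above that of 99.86% of the 2211 tested genes at or above the lowest member's level, whose median was 0.11.

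*hsp-110* (WBGene00016250, chromosome III, 8443910 to 8446909) encodes the exchange factor that resets cytosolic HSP70. Libraries of high exopher worms had normalized counts of 42110, 60599 and 62961, against 45944, 62153 and 69133 in low exopher worms. The groups overlapped, the replicate 1 libraries were again the lowest of both groups, and the high exopher library was lower within every number. It differed by −0.10 on the log2 scale, with an interval of −0.55 to 0.35 (SE 0.194, edgeR adjusted p = 0.887), and with the block −0.10 with an adjusted p of 0.401. Its within-group SD of 0.31 exceeded that of 95.48% of the same 2211 genes.

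*hsf-1* (WBGene00002004, chromosome I, 11953507 to 11963085) encodes the transcription factor that trimerizes under heat and drives the cytosolic chaperone genes. It had normalized counts of 6781, 7230.1 and 7572 in high exopher worms, against 7411, 7142 and 7908 in low exopher worms. On average this was the lowest level of the members per length, the groups overlapped, and the log2 fold change was −0.06 with an interval of −0.22 to 0.10 (SE 0.0699, edgeR adjusted p = 0.795). HSF-1 activity is set largely at the protein, which RNA counts do not measure.

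The cytosolic chaperones with heat-inducible copies were compared library by library, a set chosen after the values of *hsp-70* were seen. *F44E5.4* and *F44E5.5*, neighbouring copies of an inducible HSP70 on chromosome II, are nearly identical, and because only uniquely mapped reads were counted their values are uncertain. *F44E5.4* had 1780 normalized counts in high exopher replicate 1, 4029.6 in replicate 2 and 5563 in replicate 3, against 1335, 3739 and 3789 in low exopher worms. *F44E5.5* had 2239, 5147 and 6728 in high exopher worms, against 1690.3, 4449 and 4674 in low exopher worms. Both copies were lowest in the replicate 1 libraries, like *hsp-70*, but within every number they were higher in the high exopher library.

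For *F44E5.5* the log2 fold change was 0.38 (SE 0.464, edgeR adjusted p = 0.793), and 0.38 with the replicate block (edgeR adjusted p = 0.0178). That of *F44E5.4* was 0.36 (edgeR adjusted p = 0.817), and 0.36 with the block (edgeR adjusted p = 0.0501). In the blocked fit the edgeR adjusted p of *F44E5.5* was 0.0179 without number 1, 0.0118 without number 2 and 0.175 without number 3. That of *F44E5.4* was 0.0962, 0.0139 and 0.390 in the same order. The log2 ratio of *hsp-70* to the sum of the 2 copies in the same library was 0.28, 0.55 and 0.17 in high exopher worms, against 1.38, 0.93 and 1.38 in low exopher worms. The 3 high exopher libraries were all below the 3 low exopher libraries, and no test is given for a ratio chosen after its values were seen. The sum of all 3 genes was 8913, 22658 and 26141 in high exopher worms, against 10902, 23781 and 30462 in low exopher worms, so the sums of the groups overlapped.

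The small heat shock proteins *hsp-16.2* and *hsp-16.41*, which hold unfolding proteins in solution and are driven by HSF-1, had the same low replicate 1. *hsp-16.2* had 6250.3, 11191 and 12211 normalized counts in high exopher worms, against 6093, 12147 and 12767 in low exopher worms. *hsp-16.41* had 5818, 12733 and 13548 in high exopher worms, against 6490.3, 13446 and 13926 in low exopher worms. The groups overlapped for both genes, with log2 fold changes of −0.06 and −0.08.

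**Figure D3:**
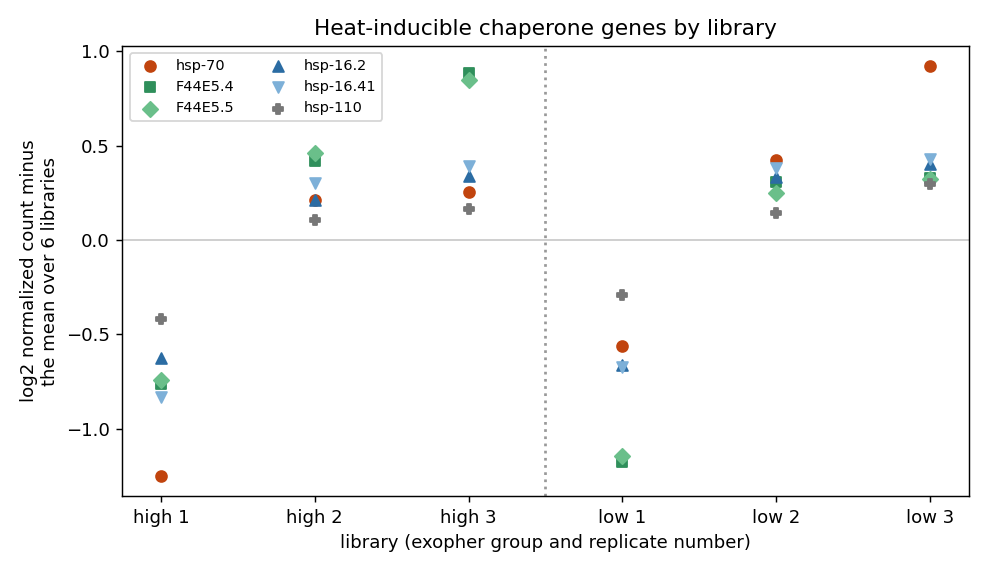
Log2 normalized count of 6 cytosolic chaperone genes in each library, minus the gene's mean over the 6 libraries. High exopher libraries are left of the dotted line and low exopher libraries right of it. All 6 genes are lowest in the replicate 1 libraries of both groups, and *hsp-70* is the gene farthest above the others in low exopher replicate 3.

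In the ER, *hsp-3* and *hsp-4* both encode BiP, the HSP70 that folds secreted and membrane proteins and holds the stress sensors of the unfolded protein response inactive. *hsp-3* (WBGene00002007, chromosome X, 6089028 to 6092124) is the more constitutive copy. Its normalized counts were 29035, 52507 and 38910 in high exopher worms, against 39586, 49284 and 39190 in low exopher worms. The lowest and the highest of the 6 libraries were both high exopher ones, and the groups overlapped. On the log2 scale the difference was −0.09 with an interval of −0.56 to 0.39 (SE 0.205, edgeR adjusted p = 0.905), and it lay between −0.33 and 0.09 with 1 library left out at a time.

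*hsp-4* (WBGene00002008, chromosome II, 7350112 to 7352645) is the copy that ER stress induces. Its normalized counts were 30931, 37139 and 35673 in high exopher worms, against 37470, 48108 and 44684 in low exopher worms. Each high exopher library was below each low exopher library, although high exopher replicate 2 and low exopher replicate 1 were nearly equal. The means were 34581 ± 3244 in high exopher worms and 43421 ± 5430.2 in low exopher worms (SD, n = 3 each), which is 0.796 times as much in high exopher worms with an interval of 0.659 to 0.962.

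The log2 fold change of *hsp-4* was −0.33 (SE 0.118, 95% interval −0.60 to −0.06, edgeR unadjusted p = 0.0241, adjusted p = 0.187). The difference therefore did not pass the test over all genes. With the replicate block it did, at −0.32 (SE 0.0597, 95% interval −0.46 to −0.19, edgeR adjusted p = 0.0131). The log2 differences within the numbers were −0.28, −0.37 and −0.32. In the blocked fit the log2 fold change was −0.35 without number 1 (edgeR adjusted p = 0.0121), −0.31 without number 2 (0.0201) and −0.33 without number 3 (0.120), so without number 3 the call was lost at about the same fold change. Over all alternatives the adjusted p was between 2.46e-05 and 0.411. The intestinal and muscle marker sums given above were lower in the same high exopher libraries, at 0.694 and 0.770 times the mean of the low exopher libraries. Such sums weigh abundant markers most, and the median log2 fold change was −0.22 for intestinal and −0.34 for muscle markers. All members share these libraries, and their log2 fold changes ranged from −0.50 to 0.17. Whether the marker sums bear on *hsp-4* was not tested.

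In mitochondria, *hsp-6* (WBGene00002010, chromosome V, 4824124 to 4826760) encodes the matrix HSP70, which pulls imported proteins across the inner membrane and folds them. It had normalized counts of 44211, 46143 and 43208 in high exopher worms, against 44925, 61981 and 50192 in low exopher worms. The high exopher libraries were close together, and the groups overlapped only because high exopher replicate 2 exceeded low exopher replicate 1. It differed by −0.23 on the log2 scale, with an interval of −0.52 to 0.05 (SE 0.123, edgeR adjusted p = 0.423), and −0.22 with the block (edgeR adjusted p = 0.157). Without both libraries of number 1 the blocked value was −0.32 with an edgeR adjusted p of 0.0304. It was −0.13 without number 2 (edgeR adjusted p = 0.297) and −0.22 without number 3 (0.461). The log2 differences within the numbers were −0.02, −0.43 and −0.22, so the call came only without the pair that differed least.

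*hsp-60* (WBGene00002025, chromosome III, 1619742 to 1625803) encodes the barrel-shaped chaperonin of the matrix, which encloses proteins while they fold. Its normalized counts were 31464, 25582 and 27228 in high exopher worms, against 24689, 25128 and 24871 in low exopher worms. Every high exopher library was above every low exopher library, but replicate 2 by a small margin, and the low exopher libraries hardly varied. The means were 28092 ± 3034 in high exopher worms and 24896 ± 221 in low exopher worms (SD, n = 3 each). The log2 fold change was 0.17 with an interval of −0.04 to 0.39 (SE 0.0913, edgeR adjusted p = 0.419), and 0.17 with the block (edgeR adjusted p = 0.219). The log2 differences within the numbers were 0.35, 0.03 and 0.13.

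The 2 mitochondrial chaperones thus lay on opposite sides of 0, and their ratio within a library does not depend on how libraries are scaled. The log2 ratio of *hsp-6* to *hsp-60* counts was 0.49, 0.85 and 0.67 in high exopher worms, against 0.86, 1.30 and 1.01 in low exopher worms. All 3 high exopher libraries were below all 3 low exopher libraries, narrowly for high exopher replicate 2 and low exopher replicate 1. The mean difference was −0.39, with an exact two-sided permutation p of 0.1, the smallest that 3 against 3 allows, and 0.4 after adjustment over the 4 ratios planned. With 1 library left out at a time the difference was between −0.49 and −0.27. Within the numbers the log2 differences of this ratio were −0.37, −0.45 and −0.35. The permutation tests of the 4 ratios did not use this pairing.

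The other 3 ratios overlapped between the groups. For the inducible over the constitutive BiP, *hsp-4* over *hsp-3*, the log2 ratio averaged −0.18 ± 0.30 in high exopher worms and 0.03 ± 0.14 in low exopher worms (SD, n = 3 each, exact permutation p = 0.4, adjusted p = 0.667). For *hsp-70* over *hsp-1* it averaged −4.71 ± 0.83 in high exopher worms and −4.19 ± 0.65 in low exopher worms (exact permutation p = 0.5, adjusted p = 0.667). Within the numbers this ratio was lower in the high exopher library in 3 of 3, by log2 differences of −0.78, −0.16 and −0.62, a pairing that the permutation test did not use. For *hsp-110* over *hsp-1* it averaged −2.23 ± 0.29 in high exopher worms and −2.13 ± 0.20 in low exopher worms (exact permutation p = 0.7, adjusted p = 0.7).

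**Figure D4:**
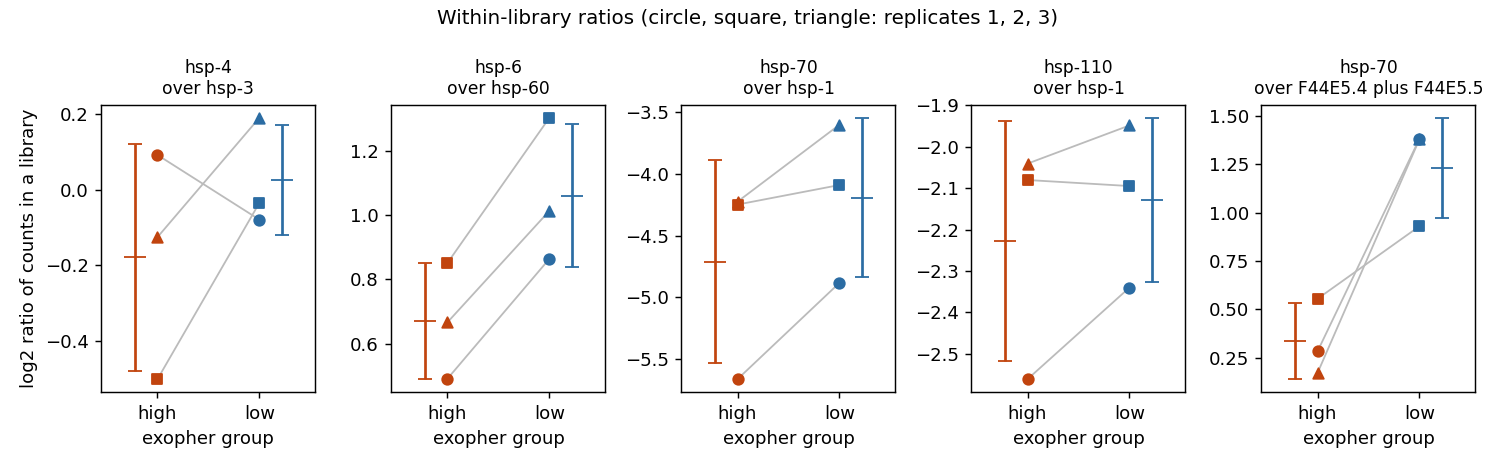
Log2 ratio of the counts of chaperone genes within each library, high exopher (red, left) and low exopher (blue, right). The last panel sets *hsp-70* against the sum of *F44E5.4* and *F44E5.5*, a ratio chosen after its values were seen. The other panels are the planned ratios. Lines join the same replicate numbers, bars give the mean and SD, and each panel has its own axis. For *hsp-6* over *hsp-60* the 3 high exopher libraries, 0.49 to 0.85, are below the 3 low exopher libraries, 0.86 to 1.30.

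Per length, the members kept the same order at both ends in both groups. *hsp-1* had 1820 ± 38.8 RPKM in high exopher worms and 1823 ± 138 in low exopher worms. *hsp-110*, *hsp-6*, *hsp-4*, *hsp-3* and *hsp-60* followed, with mean RPKM over the 6 libraries of 313, 292, 259, 230.3 and 185. *hsp-70* had 77.4 ± 36.5 RPKM in high exopher worms and 109 ± 50.95 RPKM in low exopher worms, and *hsf-1* had 43.0 ± 2.37 RPKM in high exopher worms and 44.8 ± 2.33 RPKM in low exopher worms (SD, n = 3 each).

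Among neighbours in this order, *hsp-1* and *hsp-110* did not overlap over the 6 libraries, and neither did *hsp-60* and *hsp-70*. All other neighbours overlapped across libraries. Within libraries, *hsp-6* was above *hsp-4* in 6 of 6, *hsp-110* was above *hsp-6* in 3 of 6, and the other overlapping pairs kept their order in 5 of 6. Together the 8 genes took 0.672%, 0.750% and 0.728% of all counts in high exopher worms, against 0.647%, 0.781% and 0.755% in low exopher worms (exact permutation p = 0.7). The groups overlapped in this share.

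The members varied across libraries in a few patterns, given here as descriptions over 6 libraries that share their scaling. *hsp-70* and *hsp-110* varied together (Pearson's r = 0.980 of log2 CPM), as did *hsp-4* and *hsp-6* (r = 0.861), while *hsp-4* and *hsp-60* ran in opposite directions (r = −0.777). With each group's mean removed, r was 0.997 for *hsp-70* and *hsp-110*, 0.764 for *hsp-4* and *hsp-6* and −0.532 for *hsp-4* and *hsp-60*. Among the 112 genes of the pathway lists and members, the one most like *hsp-70* was *cct-8*, a subunit of the cytosolic chaperonin CCT (r = 0.989), which was also the one most like *hsp-110* (r = 0.985). *hsp-3* was most like the J-domain gene *dnj-7* (r = 0.989), *hsp-4* like *dnj-16* (r = 0.934), *hsf-1* like *dnj-5* (r = 0.963) and *hsp-1* like *hsp-16.2* (r = 0.896). *hsp-60* was most like *tomm-40*, the channel of the mitochondrial outer membrane through which proteins are imported (r = 0.994), and *hsp-6* was most like *hsp-4*.

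Among the 7870 tested genes with a mean log2 CPM of at least 3, the 2 most like *hsp-70* were *C37H5.5* (r = 0.998) and *slc-25A46* (r = 0.996), and the 2 most like *hsp-110* were *hda-1*, a histone deacetylase (r = 0.999), and *ttll-12* (r = 0.994). Those most like *hsp-4* were *dif-1* (r = 0.989) and *pfkb-1.2* (r = 0.987), and those most like *hsp-3* were *ztf-6* (r = 0.999) and *swsn-1* (r = 0.995). Those most like *hsp-60* were *F42H10.2* (r = 0.997) and *rpia-1* (r = 0.995), and those most like *hsf-1* were *snx-14* and *scav-2* (both r = 0.997). *hsp-6* had *nspg-14* (r = 0.970) and *nspg-6* (r = 0.965), and *hsp-1* had *F14D2.8* (r = 0.968) and *W03F9.1* (r = 0.958). With so many genes searched over 6 libraries, high values of r occur for any gene.

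The partners of these chaperones were counted in 7 lists, and edgeR without the block called 0 genes in each, as did DESeq2 and limma-voom. 1 listed gene, *dnj-28* of the J-domain list, had an unadjusted p below 0.05. Of 15 cytosolic partners of HSP70 and HSP90, 10 had positive and 5 negative log2 fold changes, with a median of 0.09, against −0.01 over all genes. The lowest was *unc-23*, a BAG-family cochaperone needed for muscle attachment, with 2985, 5751 and 5349 normalized counts in high exopher worms, against 3195, 6696 and 7127 in low exopher worms. Its groups overlapped at a log2 fold change of −0.27 (edgeR adjusted p = 0.797), and the highest of this list was *F44E5.5*, given above, which is also the 1 gene of the list that the block called.

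Of 14 subunits of the chaperonin CCT, which folds actin and tubulin, and of prefoldin, which hands it clients, 10 were positive and 4 negative, with a median of 0.07. The groups did not overlap for *pfd-2*, *pfd-3* and *pfd-4*, 3 of the 14 genes and each a prefoldin subunit. These were higher in high exopher worms, a direction in which 11.8% of all genes stood apart. The largest log2 fold change of this list was that of *pfd-4*, at 0.18 (SE 0.0785, edgeR adjusted p = 0.296), with 6273, 5498 and 5659 normalized counts in high exopher worms, against 4892, 5490.5 and 4991 in low exopher worms. The lowest was *cct-3*, at −0.16 (edgeR adjusted p = 0.743).

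Of 29 J-domain genes, 16 were positive and 13 negative, with a median of 0.01. *dnj-28* was the lowest, with 3478, 3327 and 3583 normalized counts in high exopher worms, against 3852, 4199 and 3916 in low exopher worms. Its groups did not overlap, at a log2 fold change of −0.20 (SE 0.0694, edgeR unadjusted p = 0.0193, adjusted p = 0.160). In this list 2 of 29 stood apart as lower, *dnj-28* and *dnj-16*, and 1 as higher, *dnj-10*. Among all genes 9.96% stood apart as lower and 11.8% as higher. *dnj-21* had the highest log2 fold change of the list at 0.20 (edgeR adjusted p = 0.564), with overlapping groups.

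Of 21 genes of ER folding and the unfolded protein response, 6 were positive and 15 negative, with a median of −0.02. The lowest was *atf-4*, a transcription factor of the integrated stress response, with 3516, 4423 and 2944 normalized counts in high exopher worms, against 4430, 5076 and 3532 in low exopher worms. Its groups overlapped, but within every number the high exopher library was the lower one. The log2 fold change was −0.26 (SE 0.174, edgeR adjusted p = 0.569), and −0.26 with the block (edgeR adjusted p = 0.0333), the 1 call the block made in this list. The blocked edgeR adjusted p of *atf-4* was 0.119 without number 1, 0.0321 without number 2 and 0.216 without number 3.

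*xbp-1*, whose spliced message encodes the activator of *hsp-4*, had 22393, 22323 and 16279 normalized counts in high exopher worms, against 23072, 27494 and 20354 in low exopher worms. It was lower in the high exopher library of every number, with overlapping groups and a log2 fold change of −0.22 (SE 0.154, edgeR adjusted p = 0.602, and 0.097 with the block). Gene counts do not separate its spliced from its unspliced form. The other ER sensors were *ire-1* at −0.07, *pek-1* at −0.22 and *atf-6* at 0.00, all with overlapping groups. The highest log2 fold change of the list was that of *manf-1*, a secreted factor that protects the ER, at 0.10 (edgeR adjusted p = 0.565).

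Of 18 genes of mitochondrial folding, proteolysis and stress signalling, 10 were positive and 8 negative, with a median of 0.01. *haf-1*, a peptide exporter of the matrix, was the lowest at −0.20 (edgeR adjusted p = 0.755), and *ubl-5*, a ubiquitin-like cofactor of the mitochondrial unfolded protein response, was the highest at 0.18 (edgeR adjusted p = 0.562). Groups did not overlap for *tomm-40*, which was higher in high exopher worms, or for the proteases *lonp-1* and *spg-7*, which were lower, against 11.8% and 9.96% of all genes. The log2 fold change of *atfs-1*, the transcription factor that drives *hsp-6* and *hsp-60*, was −0.15 (SE 0.0966, edgeR adjusted p = 0.552), with overlapping groups.

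Of the 4 regulators of HSF-1, 2 were positive and 2 negative. The lowest was *ddl-2* at −0.23 (edgeR adjusted p = 0.524) and the highest *ddl-1* at 0.21 (edgeR adjusted p = 0.450), partners in an inhibitory complex with HSF-1, and the groups overlapped for both. Of the 4 small heat shock genes tested, 3 were negative and 1 positive. Their extremes, *hsp-16.1* at −0.41 and *hsp-16.48* at 0.17, rest on 8 to 39 counts per library, and these 2 genes have near-identical copies.

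**Figure D5:**
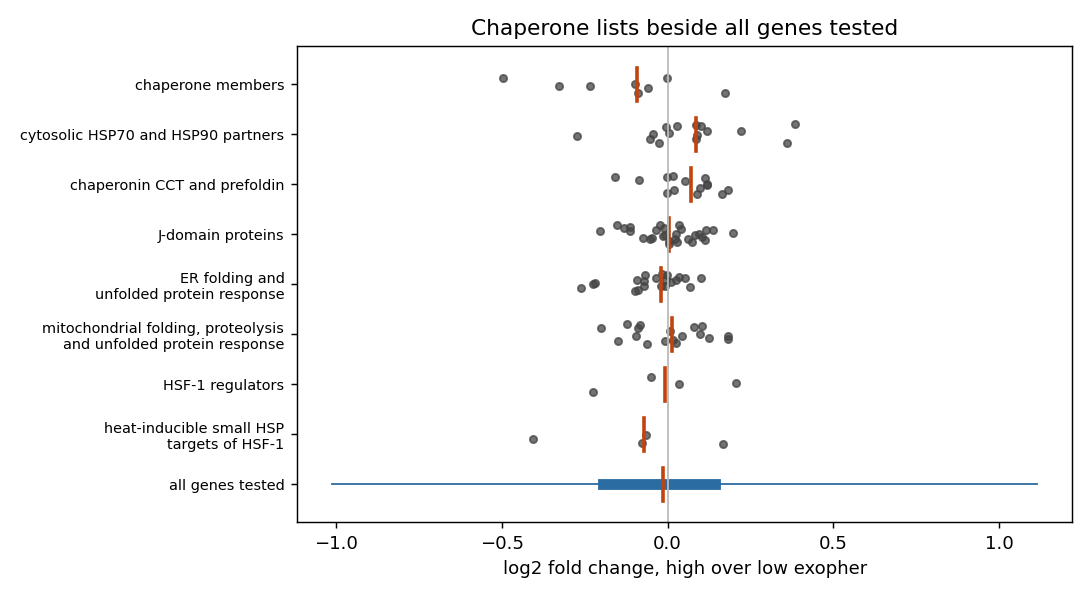
Log2 fold change, high over low exopher, of each tested gene (points, spread vertically for legibility) in the 8 members and the 7 partner lists, with each list's median as a red line. The bottom row gives all 15883 genes tested, with the thick bar from −0.20 to 0.14 (lower to upper quartile), the thin line from −1.01 to 1.12 (the 5th to 95th percentile) and a median of −0.01. Points of every list lie between −0.50 and 0.38.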

How the data were processed

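Whole-worm poly(A) RNA was sequenced in 3 high and 3 low exopher libraries. The deposited counts were made by the authors with Trimmomatic 0.36, STAR 2.5.2b and featureCounts (Subread 1.5.2) from uniquely mapped reads in exons. The Ensembl release and the strand setting are not given in the sources used here. Another deposited table, scaled by DESeq2 size factors, was not used.

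Tests were run with edgeR 4.0.16 (filterByExpr, TMM, robust quasi-likelihood F test of high over low, Benjamini-Hochberg adjustment over all 15883 genes tested), limma 3.58.1 and DESeq2 1.42.0, under R 4.3.3. The SE is the absolute log2 fold change over the square root of F. Normalized counts are counts over the effective library size, times its mean. Positions come from Ensembl release 115 (WBcel235). The method was tested on simulated data with planted changes larger than those of the members and no effect of the replicate number. That setting does not show how the blocked fit behaves on paired libraries or at small changes. Of 117 listed symbols, 4 were not matched. Sequences were not analysed here.

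Members, lists and tests were chosen with earlier results of these data known. Named genes are the members, each list's calls and its highest and lowest log2 fold change, and the genes most correlated with each member. Other listed genes named were chosen after their values were seen.

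After subtracting each group's mean, the residuals of libraries sharing a number had a Pearson's r over all tested genes of 0.282, 0.259 and 0.345 (numbers 1, 2 and 3), against −0.172 to −0.119 for different numbers. Residuals of a group cancel out for every gene, so positive values for shared numbers bring negative values for different numbers. The negative values are therefore no separate support for pairing. All 3 values for shared numbers exceeded 0.1, so the numbers were taken as pairs. The labels do not say what a number shares. Alternatives were DESeq2, limma-voom, other scalings, no filter, the block and each library left out.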

Additional observations from a re-analysis of the deposited data

How the results depend on the processing

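Scaling moved the median log2 fold change of all genes by at most 0.05. The replicate block changed the calls of *hsp-70* (−0.52) and *hsp-4* (−0.32) and of no other member, and DESeq2 with the block, added after seeing the data, gave −0.53 and −0.34. Without the block, no member was called under any other test, scaling or filter or with 1 library left out. The sign of *hsp-1* turned with upper quartile scaling (0.015), total count scaling (0.050), no filter (0.0029) and the block (0.00051). The block with 1 number left out, also added after seeing the data, was run for the counts over all genes, the members and the lists. It gave *hsp-70* −0.44 without number 1, −0.68 without number 2 and −0.45 without number 3. For *hsp-4* it gave −0.35, −0.31 and −0.33 in the same order. For *hsp-6* it gave −0.32, −0.13 and −0.22, with a call only without number 1. *hsp-3* turned to 0.041 without number 1, and *hsp-1* to 0.020 without number 2 and 0.022 without number 3.

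Over all genes, 541 were called higher and 493 lower. The block gave 1036 higher and 931 lower, DESeq2 971 and 813, DESeq2 with the block 1008 and 1094, and no filter 771 lower. The block gave 799 lower without number 1, 933 higher and 1371 lower without number 2, and 829 and 762 without number 3. Past an absolute log2 fold change of 1 as well, 469 were higher and 442 lower, with 670 lower without a filter and 753 lower in the block without number 2. With 1 library left out the calls ranged from 5 to 514 higher and 0 to 740 lower, and past both thresholds from 5 to 465 and 0 to 663.

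Of the cytosolic partners, the block called 1 higher, DESeq2 with the block 2, and the block without number 1 called 1 higher and 1 lower and without number 2 called 2 higher. Of CCT and prefoldin, the block without number 2 called 1 higher and 1 lower. Of the ER list, the block and DESeq2 with the block called 1 lower each, and the block without number 1 called 1 and without number 2 called 2. With 1 library left out the log2 fold changes of the members ranged from −0.083 to 0.031 for *hsp-1*, −0.82 to −0.13 for *hsp-70*, −0.27 to 0.061 for *hsp-110*, −0.11 to −0.02 for *hsf-1*, −0.33 to 0.092 for *hsp-3*, −0.44 to −0.26 for *hsp-4*, −0.35 to −0.11 for *hsp-6* and 0.08 to 0.24 for *hsp-60*. The difference in summed share ranged from −0.05 to 0.02 percentage points. The log2 ratio differences ranged from −0.34 to −0.04 for *hsp-4* over *hsp-3*, −0.49 to −0.27 for *hsp-6* over *hsp-60*, −0.87 to −0.05 for *hsp-70* over *hsp-1* and −0.21 to 0.07 for *hsp-110* over *hsp-1*.

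With 3 libraries a group, an exact permutation p cannot go below 0.1, and the blocked fit has few residual degrees of freedom. Depth did not limit the members, whose lowest count was 5273. RNA of whole worms gives no tissue of origin and no protein level, and differences in muscle, intestine and sperm markers between the groups cannot be told apart from the exopher number. The planned comparison of promoters and proteins was not run, because no sequence was used here.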
